A study of Mus musculus with 20 samples.

Results

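Accessible chromatin around the 4 genes of the mouse Mef2 family, Mef2a, Mef2b, Mef2c and Mef2d, was examined in C2C12 cells, a myoblast line that forms muscle-like cells when it differentiates. The data are 20 ATAC-seq peak lists. In ATAC-seq a transposase cuts open DNA, and a peak marks a stretch that was cut more often than its background. Peaks of all lists that shared at least 1 base were merged into 101352 regions, and each region within 20 kb of the GRCm38 span of a member was taken as an element of that gene. This gave 48 elements, which held 434 of the 787806 listed peaks: 14 for Mef2a, 7 for Mef2b, 10 for Mef2c and 17 for Mef2d.

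The cells were wild type (WT) or a knockout (KO) of Setd2, the gene of a histone methyltransferase that acts on transcribed genes. They were sampled at day 0 (D0), and at day 1 (D1) and day 5 (D5) of the series either in control medium (CTL) or with methionine restricted (MR). Methionine supplies the methyl donor that such enzymes use. Each of the 10 groups had 2 libraries, which were replicates 1 and 2 for WT and 1 library from each of 2 KO lines, called KO line 1 and KO line 2. The labels do not give the Setd2 allele, the degree of restriction, whether each KO line is 1 clone, or whether the WT replicates were separate cultures. The p-values therefore measure the spread between these libraries, which in WT may be technical.

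An element counts as called in a library when that library's list has a peak in it. The lists of 18 libraries held 20847 to 69881 peaks. Those of KO line 1 at D5 held 644 (CTL) and 1881 (MR) peaks. A missing call there cannot be told apart from a lack of depth, and KO at D5 rests mainly on line 2. A gene-end peak of Setd2 was present in 10 of 10 WT and 8 of 10 KO libraries, all but those 2 shallow lists. A peak there does not test the deletion. Of 5 myoblast marker genes, Cdh15, Des and Chrna1 had a gene-end peak in all 18 deeper libraries, Myod1 in 17 and Myf5 in 0. The marker genes of 5 other cell types (Alb, Cd3e, Cdh5, Nanog and Rbfox3) had none in any library.

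MEF2 proteins are transcription factors of the MADS-box class that bind an A/T-rich DNA element, the MEF2 box, as dimers. In muscle precursors they act together with the MyoD family to switch on contractile and metabolic genes. Class IIa histone deacetylases such as Hdac4 and Hdac5 hold them in check, and calcium-dependent and p38 kinases release or activate them. Mef2a, Mef2c and Mef2d are the members mostly studied in skeletal muscle, and Mef2c is known for rising as myoblasts differentiate. ATAC-seq reports openness of their DNA and not their expression.

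The windows at the listed starts of the members are shown because the peaks at them differed so much between the genes: a peak lay within 1 kb of the listed start in 18 libraries for Mef2d, 17 for Mef2a and 14 for Mef2b, and in 0, 3 and 1 libraries for the 3 listed starts of Mef2c. Each window runs from 250 bases before the start through the first 50 transcribed bases, on the gene's strand, from RefSeq (GRCm38.p6). Capitals mark matches to 5 motifs searched on both strands, of which no 2 overlap in these windows: the MEF2 box, the E-box CAGCTG, a second type of E-box, CACCTG, which reads as CAGGTG when it lies on the opposite strand, the AP-1 motif TGANTCA, and the GC box GGGCGG, which reads as CCGCCC when it lies on the opposite strand.
Mef2d, chr3:88142122-88142421, plus strand: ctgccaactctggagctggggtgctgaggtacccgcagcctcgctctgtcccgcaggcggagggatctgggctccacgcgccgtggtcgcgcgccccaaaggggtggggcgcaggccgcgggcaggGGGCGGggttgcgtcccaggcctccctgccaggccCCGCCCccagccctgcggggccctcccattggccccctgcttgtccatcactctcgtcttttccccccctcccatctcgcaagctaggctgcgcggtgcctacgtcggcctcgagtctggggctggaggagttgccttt
Mef2a, chr7:67372809-67373108, minus strand: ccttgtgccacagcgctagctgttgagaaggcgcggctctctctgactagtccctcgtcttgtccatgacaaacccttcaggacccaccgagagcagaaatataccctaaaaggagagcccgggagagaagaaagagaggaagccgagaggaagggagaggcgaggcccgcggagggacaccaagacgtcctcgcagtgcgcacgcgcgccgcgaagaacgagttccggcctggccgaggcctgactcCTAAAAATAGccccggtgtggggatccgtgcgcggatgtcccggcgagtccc
Mef2b, chr8:70152511-70152810, plus strand: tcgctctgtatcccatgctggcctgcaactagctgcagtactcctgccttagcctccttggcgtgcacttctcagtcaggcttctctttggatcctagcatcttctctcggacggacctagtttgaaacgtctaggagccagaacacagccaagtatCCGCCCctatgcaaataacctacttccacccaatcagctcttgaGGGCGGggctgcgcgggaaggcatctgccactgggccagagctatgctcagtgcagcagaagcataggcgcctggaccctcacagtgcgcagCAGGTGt
Mef2c, second listed start, chr13:83523406-83523705, plus strand: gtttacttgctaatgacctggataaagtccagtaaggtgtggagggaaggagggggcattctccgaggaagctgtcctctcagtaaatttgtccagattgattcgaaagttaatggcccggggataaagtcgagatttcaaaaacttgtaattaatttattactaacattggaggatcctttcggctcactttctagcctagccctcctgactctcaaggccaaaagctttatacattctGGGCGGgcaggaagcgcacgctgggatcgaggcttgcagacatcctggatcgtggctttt

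The Mef2d window had the highest GC content of the 6 members' windows, 72.0%, with 24 CpG dinucleotides. Mef2a followed with 62.3% and 27 CpG, and Mef2b with 57.0% and 11 CpG. For the 3 Mef2c windows the values were 35.7%, 47.0% and 48.3%, all under the median of 52.7% over the 32851 windows of the RefSeq table. The elements, which join the peaks of all lists, covered all 300 bases of the Mef2d and Mef2a windows. They covered 196 of the Mef2b window, and 0, 19 and 73 of the Mef2c windows in the order of their starts. Single lists covered less of the Mef2a window. In WT at D0 and D1 their peaks lay outside it or overlapped only bases past the start. For example, the WT D0 peaks lay at −0.697 to −0.308 kb and −0.72 to −0.287 kb from the Mef2a start, outside the window. The peak of KO D0 line 1 ran from −0.702 to 0.09 kb and spanned it.

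The Mef2a window held a MEF2 box, CTAAAAATAG, which overlaps the listed start itself (chr7:67372851-67372860). Such a box was present in 3.19% of all windows. No WT list of D0 or D1 had a peak over the Mef2a box, and the peak of KO D0 line 1 covered it. Mef2b had the E-box CAGGTG 44 bases into the transcript, a motif found in 20.2% of windows. GC boxes stood 124 and 89 bases before the Mef2d start, 93 and 49 bases before the Mef2b start and 10 bases before the second Mef2c start, and 35.7% of all windows held one. CAGCTG, present in 16.3% of windows, had no match in any of the 6, and the AP-1 motif, present in 7.81%, matched once, in the window of the third Mef2c start, which is not shown. These are letter matches, and nothing measured here tells whether a factor was bound.

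The elements differed widely in how often they were called. Of the 48, 15 were called in at least 16 libraries (31.2%, against 18% of all merged regions), 7 in all 18 deeper libraries (14.6% against 11%) and 10 in 1 library alone (20.8% against 20.4%). Their median length was 158.5 bases, against 172 for all regions. By genotype, 28 were called in both (58.3%), 14 in WT alone (29.2%) and 6 in KO alone (12.5%), where the shares of all regions were 58.1%, 21.8% and 20.1%. The same 3 counts were found over the 18 deeper libraries. Against the gene models, 4 elements lay within 1 kb of a gene end, 24 elsewhere inside a gene and 20 in the flanks. Exons and introns were not assigned here.

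**Figure D1:**
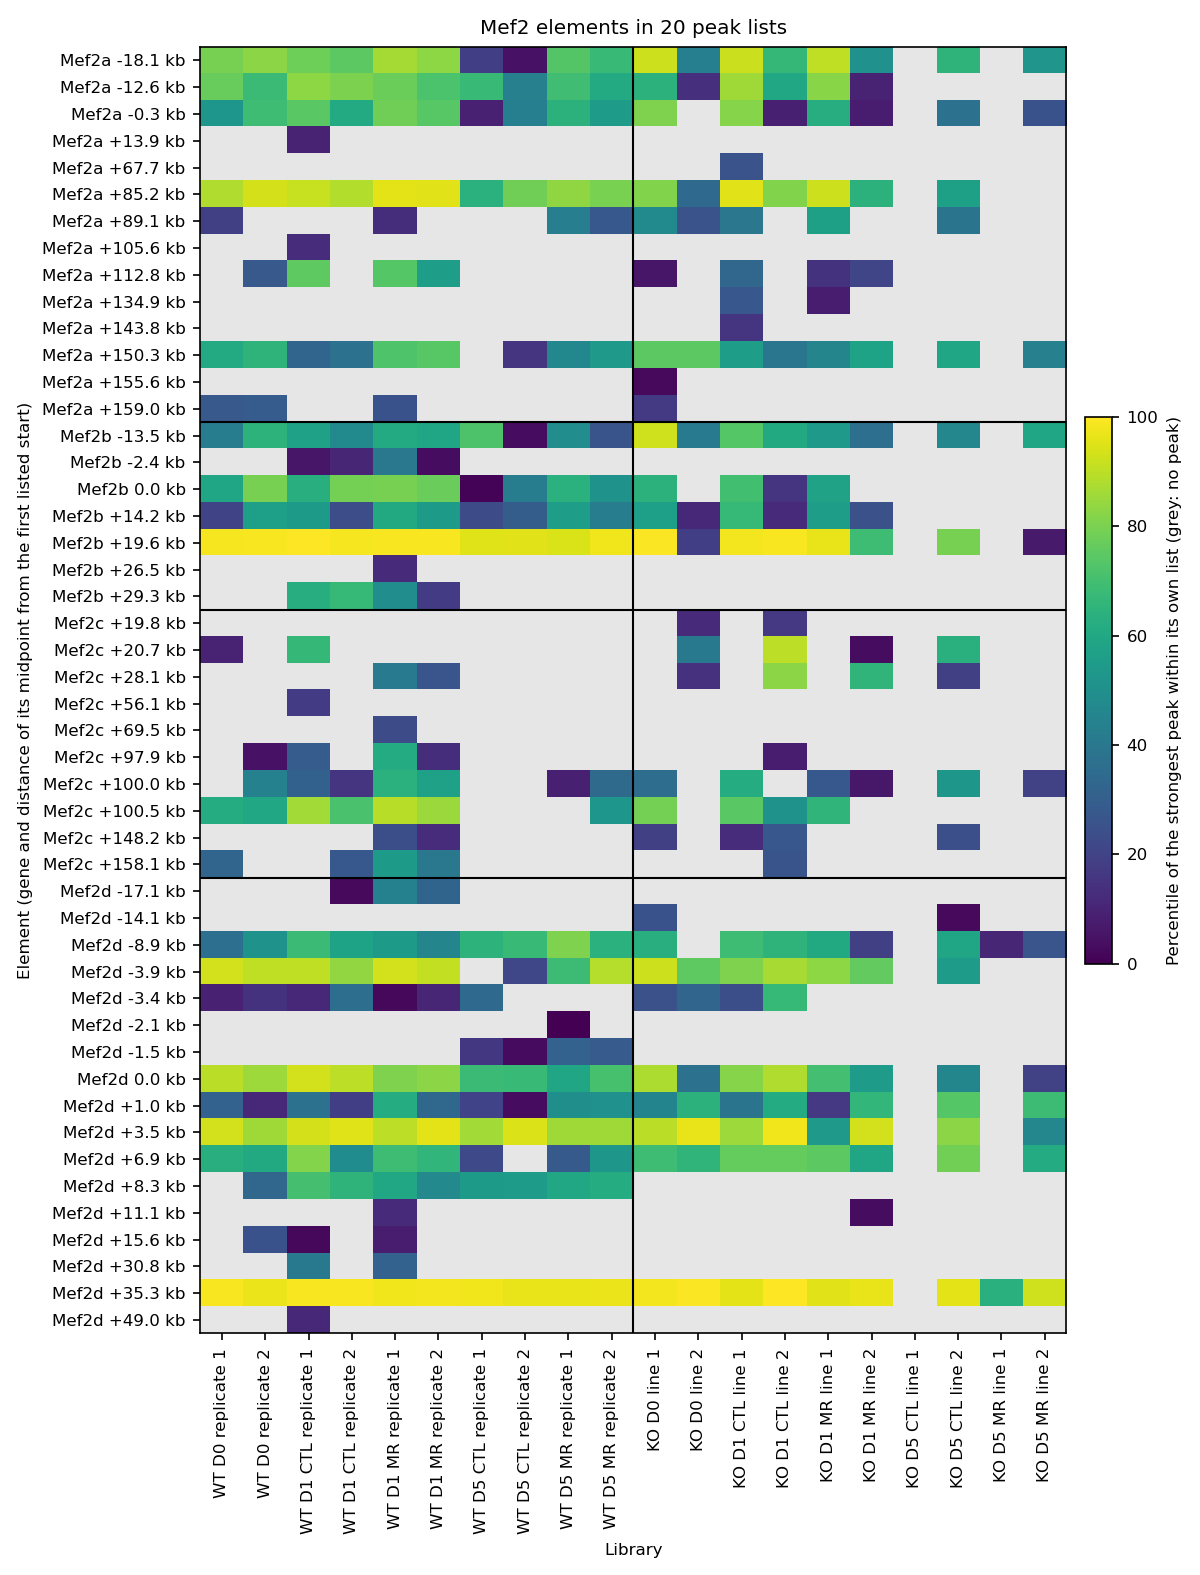
Calls and ranks of the 48 elements (rows, named by gene and by the distance of the midpoint from the first listed start, downstream positive) in the 20 libraries (columns). Colour gives the percentile of the element's strongest peak within its own list and grey means no peak; Mef2d and Mef2a hold rows filled across nearly all libraries, while Mef2c holds mostly scattered calls.

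WT had 23.0 ± 1.4 elements at D0 (SD, n = 2), 27.5 ± 4.95 at D1 CTL, 31.5 ± 4.95 at D1 MR, 17 ± 0 at D5 CTL and 21 ± 0 at D5 MR. KO had 21.5 ± 4.95 at D0, 24.5 ± 0.71 at D1 CTL and 20.5 ± 0.71 at D1 MR. At D5 the KO line 2 libraries had 19 (CTL) and 12 (MR), and the shallow line 1 libraries 0 and 2. The libraries with most elements, WT D1 MR replicate 1 with 35 and WT D1 CTL replicate 1 with 31, also had 66.9% and 55.4% of all regions called. KO line 1 at D0 (63530 peaks, 60.6% of regions) and at D1 CTL (61045 peaks, 58.9%) had 25 elements each, fewer than WT D1 CTL replicate 1 with its 60173 peaks. The part of list length in the number of elements was not tested.

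**Figure D2:**
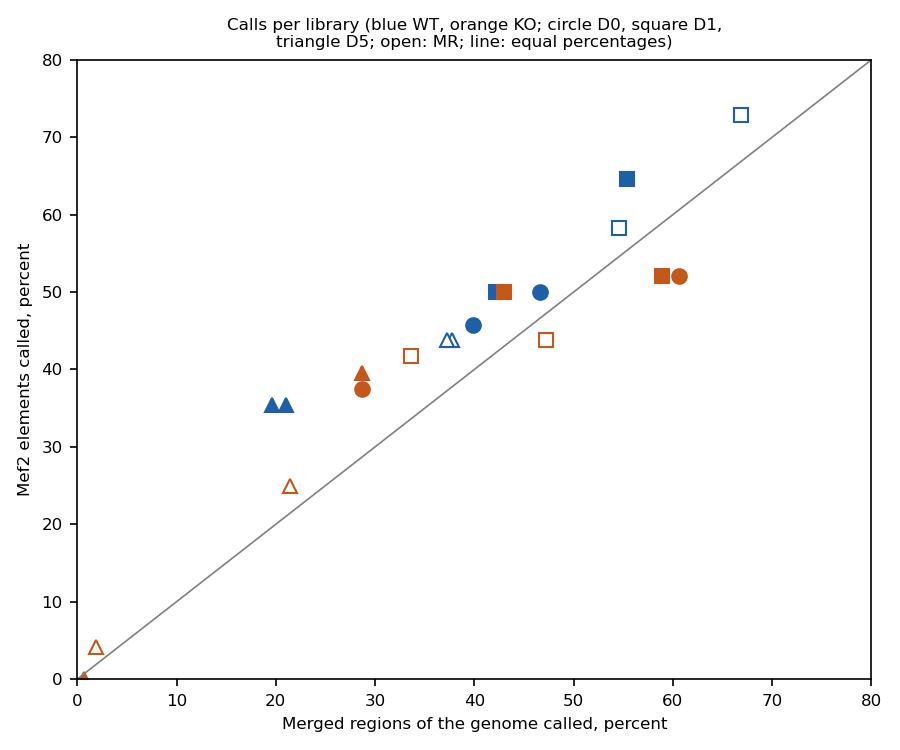
Percent of the 48 elements called (vertical) against percent of all 101352 regions called (horizontal), 1 point per library, with the line of equal percentages. The points run from 0% of elements in KO D5 CTL line 1 to 72.9% in WT D1 MR replicate 1. Every WT library and every KO line 2 library lies above the line. KO line 1 lies below it at D0, D1 and D5 CTL, and above it at D5 MR.

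Mef2d had the most open surroundings of the 4 genes. Its element at the start (chr3:88141926-88142831) was called in all 18 deeper libraries, and so were those 1.0 kb and 3.5 kb into the gene. Ranks are given as percentiles of an element's strongest peak among the peaks of its own list by −log10 q, where 100 is the strongest. Lists differ in length, so these ranks describe a library and were not tested between libraries. At the start the percentiles were 89.8 and 85.4 in WT D0, 93.2 and 90.2 in WT D1 CTL, 80.8 and 82.5 in WT D1 MR, 68.2 and 67.3 in WT D5 CTL, and 58.6 and 71.0 in WT D5 MR. In KO, line 1 then line 2, they were 87.5 and 37.4 at D0, 81.8 and 87.9 at D1 CTL, and 70.0 and 54.7 at D1 MR, and line 2 had 45.8 at D5 CTL and 19.8 at D5 MR. The 4 WT D5 values lay below the 6 earlier WT values, and the 3 lowest KO values belonged to line 2.

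The peak 3.5 kb into Mef2d (chr3:88145400-88146320) ranked above the one at the start in 17 of the 18 deeper libraries, all but KO D1 MR line 1. Its percentile lay between 85.6 and 95.8 in the 10 WT libraries. In KO it was 89.8 and 96.7 at D0, 85.3 and 98.0 at D1 CTL, 53.6 and 93.1 at D1 MR, and 82.7 and 46.1 in line 2 at D5 CTL and MR. The strongest element of the locus was 35.3 kb downstream of the start, past the gene (chr3:88177168-88178259), and was called in 19 libraries. It ranked between 92.6 and 99.7 in the 18 deeper libraries and at 63.3 in KO D5 MR line 1. An end of the noncoding gene 1700113A16Rik lies within 1 kb of it, so a peak there cannot be assigned to Mef2d.

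**Figure D3:**
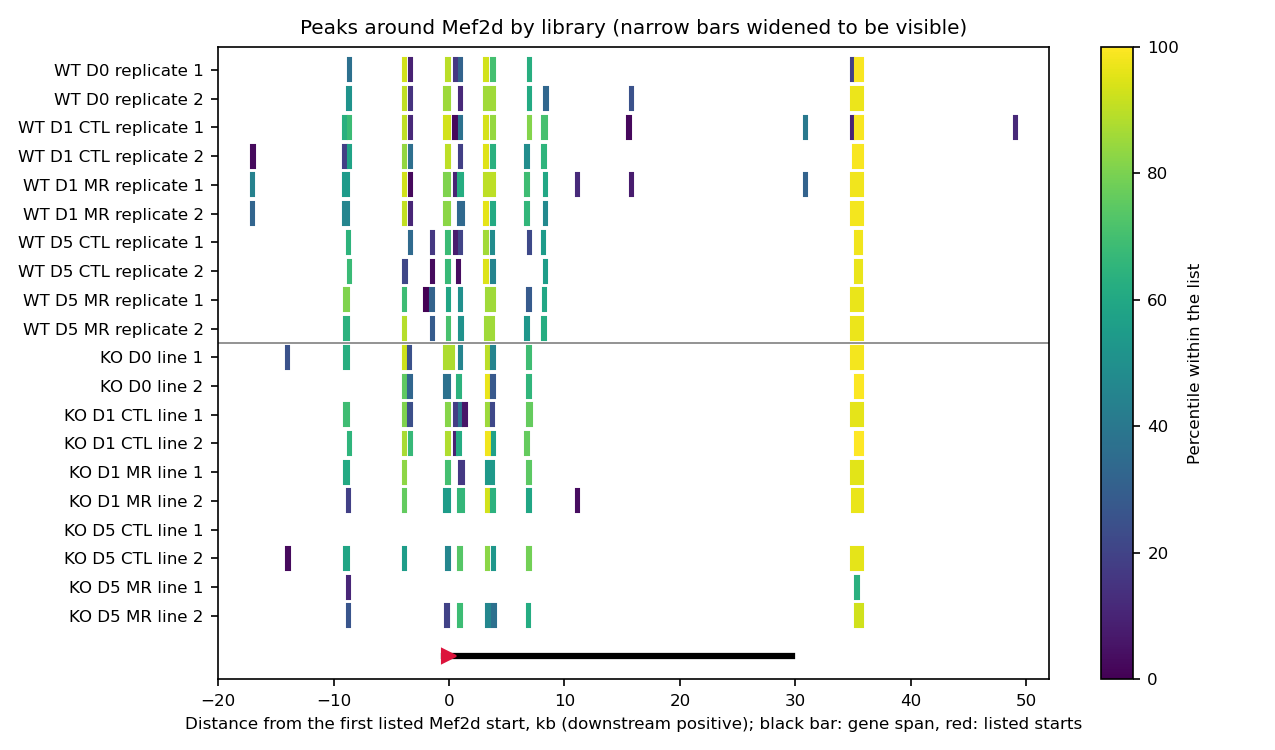
Peaks around Mef2d in each library (rows) by distance from the listed start (kb), coloured by percentile within the list; the black bar is the gene and the red mark the start. The columns of bars at the start, at 3.5 kb and at 35.3 kb run through both genotypes, and the column at 8.3 kb stops at the line between WT and KO.

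A further element inside Mef2d, 8.3 kb downstream of the start (chr3:88150433-88150891), was called in 9 of 10 WT libraries and in 0 of 10 KO libraries. Its percentiles were none and 33.0 in WT D0, 70.6 and 65.2 in WT D1 CTL, 59.7 and 47.1 in WT D1 MR, 54.5 and 55.2 in WT D5 CTL, and 59.6 and 61.9 in WT D5 MR. WT D0 replicate 1 was the WT library without a peak, and all 8 WT libraries of D1 and D5 had one in the middle of their range. The call share was lower in KO by 0.9 (exact stratified permutation test, two-sided, p = 0.0007716, Benjamini-Hochberg adjusted p = 0.03525 over 18700 testable regions). It was the 1 of 8 testable elements that passed, where 16.1% of all testable regions passed in that direction. The neighbouring element 6.9 kb from the start (chr3:88148944-88149529), was called in 9 WT and 8 KO libraries.

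Without the shallow D5 libraries of KO line 1 the adjusted p of this element was 0.03274 (exact test). Without WT replicate 1, WT replicate 2 or KO line 2 it was 0.1475, 0.1331 or 0.0596, and without all D5 libraries it was 0.05366 (exact tests), with a call share lower in KO by 0.8 to 1.0 in these 4 fits. When peaks had to cover 50% of the region the difference shrank to −0.5 (exact p = 0.02778, adjusted p = 0.09304), and with the 20000 strongest peaks of each list to −0.6 (exact p = 0.009259, adjusted p = 0.05094). With 50% cover, without either WT replicate and without KO line 2, 0 of all regions passed the genotype test. Without all D5 libraries 1347 regions passed, and with the 20000 strongest peaks 1691 did. The 10 KO libraries are 2 lines sampled 5 times each, and libraries of 1 line deviate together, while the test takes each library as independent. The genotype results thus rest on 2 lines, and their p-values may be too small; 2 lines do not allow a test with the line as the unit.

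Of the other Mef2d elements, the one 1.5 kb upstream of the start (chr3:88140758-88140891) was singled out after its values were seen. It was called in all 4 WT D5 libraries, at percentiles of 16.2 and 3.0 (CTL) and 31.6 and 28.8 (MR), and in no other library. Of the regions called in any of the libraries of D0, D1 or WT D5, 0.0515% had calls in all 4 WT D5 and in none of the 12 at D0 and D1, and 0.564% the other way round, a way that 0 Mef2 elements took. The peaks were weak, with authors' fold enrichments of 2.73 to 3.13, against 3.60 to 4.22 for the start in the same libraries. The background pileup, a measure of depth recovered from the lists, was 5.17 to 5.88 fragments per position in WT at D5 and 3.17 to 3.53 in WT at D1. At D0, where the element had no call, the pileup was 4.71 and 5.38 in WT, 5.20 in KO line 1 and 2.52 in KO line 2. In KO at D5, also without a call, it was 1.84 (CTL) and 1.42 (MR) in line 2. In line 1 it was 0.128 (CTL) and 0.101 (MR) there. The part of depth in this pattern was not tested.

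The element 3.4 kb upstream of Mef2d (chr3:88138798-88139173) was called in 11 libraries. Percentiles were 9.0 and 14.7 in WT D0, 24.8 and 32.7 in KO D0, 11.5 and 36 in WT D1 CTL, 24.0 and 67.0 in KO D1 CTL, 2.3 and 10.9 in WT D1 MR, and 34.1 in WT D5 CTL replicate 1. No KO D1 MR library and 1 of 8 D5 libraries had it. A stronger element next to it, 3.9 kb upstream, was called in 16 libraries at percentiles of 21.2 to 93.2. The element at the far gene end, 30.8 kb from the start (chr3:88173083-88173177), had a call in WT D1 CTL replicate 1 (40.5) and WT D1 MR replicate 1 (31.4) alone.

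Mef2a lies on the minus strand (chr7:67231163-67376456), and its gene model extends past the listed start at 67372858, so the element there (chr7:67372747-67373643) counts as inside the gene and neither gene end had a peak. The start element was called in 17 libraries. WT percentiles were 52.4 and 68.9 at D0, 74.3 and 61.1 at D1 CTL, 78.5 and 74.2 at D1 MR, 9.2 and 43.3 at D5 CTL, and 64.4 and 54.7 at D5 MR. In KO line 1 they were 80.8 at D0, 81.8 at D1 CTL and 62.2 at D1 MR. In line 2 the start had no peak at D0, 8.9 at D1 CTL, 7.6 at D1 MR, 37.5 at D5 CTL and 25.0 at D5 MR. At D0 and D1 the 3 values of line 1 thus lay among or above those of WT and the 2 of line 2 lay below all 6 of WT.

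Most called around Mef2a was the element 18.1 kb upstream of the start (chr7:67390824-67391152), with calls in all 18 deeper libraries. Percentiles were 79.5 and 82.8 in WT D0, 77.8 and 74.8 in WT D1 CTL, 86.6 and 83.2 in WT D1 MR, 18.5 and 5.0 in WT D5 CTL, and 73.2 and 67.8 in WT D5 MR. KO line 1 had 92.3, 92.0 and 90.6 at D0, D1 CTL and D1 MR. KO line 2 had 43.0, 66.5 and 50.5 there, and 65.0 and 52.1 at D5 CTL and MR. The 2 WT D5 CTL values were the lowest of the 18, and at D0 and D1 the 2 lines lay on opposite sides of WT.

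Deep inside Mef2a, 85.2 kb from the start (chr7:67287544-67287752), a strong element was called in 17 libraries, with percentiles of 64.0 to 95.9 in the 10 WT libraries. Another, 112.8 kb from the start (chr7:67259969-67260090), was called in 8 libraries, all at D0 or D1. It had percentiles of 27.9 in WT D0 replicate 2 and 6.0 in KO D0 line 1, 75.2 in WT D1 CTL replicate 1 and 33.1 in KO D1 CTL line 1, 73.7 and 55.9 in WT D1 MR, and 14.6 and 21.0 in KO D1 MR. The 4 WT peaks ranked above every KO peak except that the WT D0 value lay below the 33.1 of KO D1 CTL line 1. Of the remaining Mef2a elements, 5 were called in 1 library each.

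Mef2b, the smallest of the 4 genes (chr8:70152761-70167488, plus strand), had a peak at its start in every WT library and in 4 of 10 KO libraries (chr8:70152615-70152828). WT percentiles were 58.9 and 79.6 at D0, 62.7 and 79.0 at D1 CTL, 79.3 and 77.1 at D1 MR, 1.0 and 42.5 at D5 CTL, and 63.8 and 51.0 at D5 MR. KO line 1 had 64.3 at D0, 69.7 at D1 CTL and 57.5 at D1 MR. KO line 2 had 15.6 at D1 CTL and no peak in its other 4 libraries. The call share was lower in KO by 0.6 (exact stratified permutation test, p = 0.01389), which missed the threshold after adjustment (Benjamini-Hochberg adjusted p = 0.05067). Without KO line 1 the adjusted p was 0.04993 (exact test). Without KO line 2 the difference was −0.4 (exact p = 0.1111), without either WT replicate the exact p was 0.09877, and without the D5 libraries the difference was −0.333 (exact p = 0.5). At D0 and D1 the missing calls were those of line 2. Background pileup in line 2 was 2.52, 2.30 and 2.76 at D0, D1 CTL and D1 MR, and 1.84 and 1.42 at D5. In WT it was 3.17 to 5.88, and the part of depth in the missing calls was not tested.

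The other gene-end element of Mef2b, 14.2 kb from the start (chr8:70166834-70167005), was called in 16 libraries. Percentiles were 20.5 and 56.4 in WT D0, 54.3 and 23.7 in WT D1 CTL, 60.9 and 54.6 in WT D1 MR, 23.0 and 29.6 in WT D5 CTL, and 55.5 and 42.4 in WT D5 MR. KO line 1 had 56.5, 67.1 and 55.6, and line 2 had 11.6, 12 and 24.9, at D0, D1 CTL and D1 MR. No KO D5 library had a peak there, and each line 2 value was below that of line 1. The gene Gm45929 ends at the same base as Mef2b, so the 2 genes cannot be told apart here.

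The strongest element near Mef2b was 19.6 kb from its start, beyond the gene and within 1 kb of an end of Tmem161a (chr8:70172259-70172541). Percentiles were 98.6 and 99.1 in WT D0, 99.7 and 98.7 in WT D1 CTL, 99.2 and 99.1 in WT D1 MR, 95.1 and 95.4 in WT D5 CTL, and 94.5 and 97.9 in WT D5 MR. KO line 1 had 99.5, 98.2 and 96.8 at D0, D1 CTL and D1 MR. KO line 2 had 18.6, 99.1 and 69.0 there, and 79.3 and 7.2 at D5 CTL and MR. The values of line 2 thus ranged from near the bottom of a list to the top of one, while all 13 others lay at 94.5 or higher.

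A pair of elements beside Mef2b, chosen after their values were seen, was called in all 4 WT D1 libraries and in no other. The one 29.3 kb downstream of the start (chr8:70181969-70182201) had percentiles of 62.4 and 66.8 in CTL and 48.9 and 17.4 in MR. The one 2.4 kb upstream (chr8:70150289-70150390) had 5.9 and 10.8 in CTL and 40.1 and 3.2 in MR. Of all merged regions, 0.531% had this pattern. The WT D1 lists were among the longer ones, with 45545 to 69881 peaks. The lists of KO line 1 at D0 (63530 peaks) and of both KO lines at D1 CTL (61045 and 46664) were as long as some of these and had neither element. The part of list length in this pattern was not tested.

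**Figure D4:**
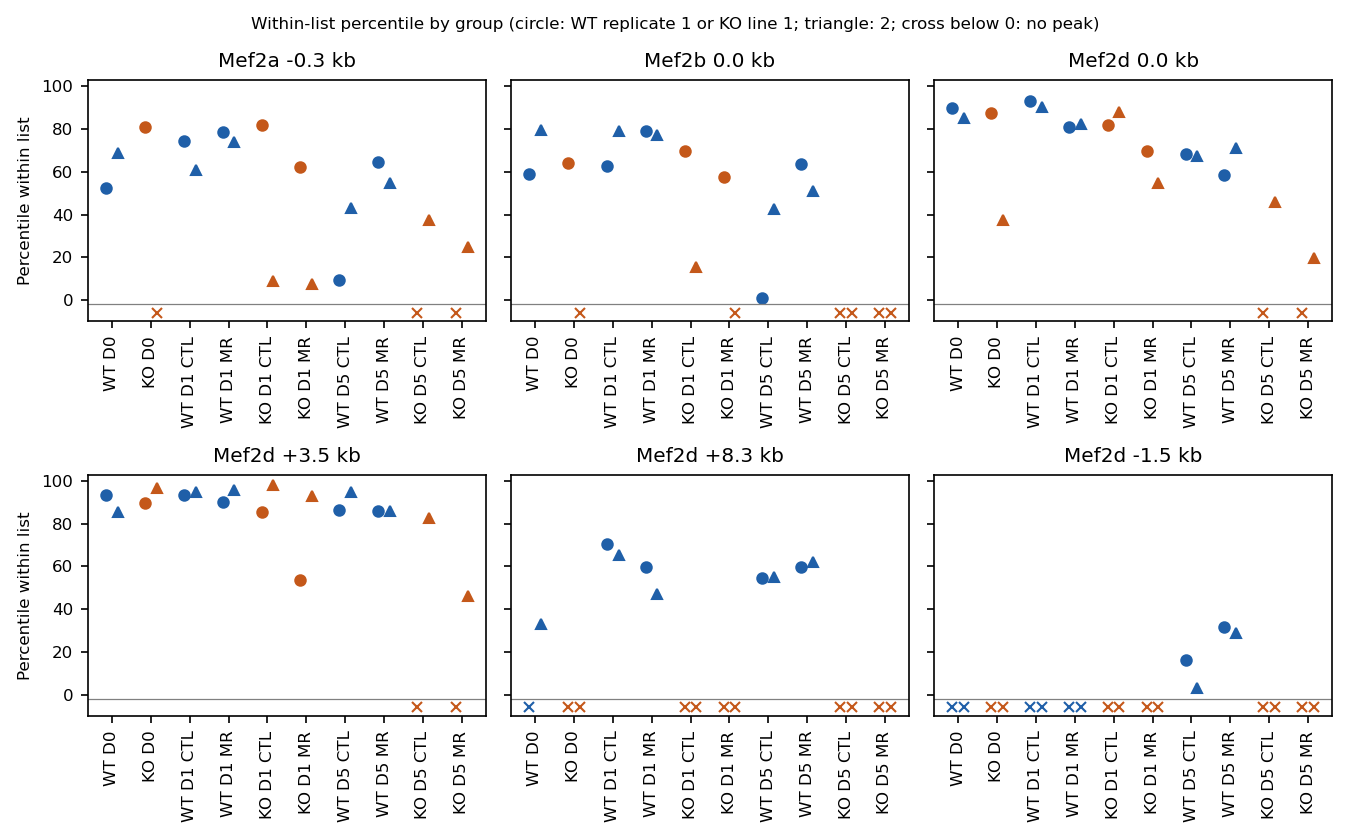
Percentile within the list (vertical) of 6 elements by group (horizontal), 1 symbol per library: blue WT and orange KO, circle replicate 1 or line 1, triangle replicate 2 or line 2, cross below 0 for no peak. The orange triangles of line 2 sit below the circles of line 1 at the Mef2a start and the Mef2b start, the element 8.3 kb into Mef2d has no orange circle or triangle, and the one 1.5 kb upstream of Mef2d has symbols in WT D5 alone.

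Mef2c was the least open of the 4. None of its 10 elements was called in 16 or more libraries, all lay inside the gene (chr13:83504017-83667079, plus strand) and neither gene end had a peak. No library had a peak within 1 kb of the first listed start. At the second start an element 19.8 kb from the first start (chr13:83523687-83523922) was called in KO line 2 at D0 (12.2) and at D1 CTL (16.6) alone. At the third start, the element 69.5 kb from the first was called in WT D1 MR replicate 1 alone (23.2).

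The most often called Mef2c elements formed a pair about 100 kb into the gene. The first (100 kb, chr13:83604011-83604147) was called in 13 libraries: WT D0 replicate 2 (43.8), WT D1 CTL (31.2 and 15), WT D1 MR (63.8 and 57.1), WT D5 MR (8.8 and 34.5), KO line 1 at D0, D1 CTL and D1 MR (35.6, 61.8 and 27.5), and KO line 2 at D1 MR, D5 CTL and D5 MR (6.3, 53.1 and 19.2). The second (100.5 kb, chr13:83604464-83604590) had 11 calls: WT D0 (62.1 and 59.8), WT D1 CTL (86.1 and 71.3), WT D1 MR (89.1 and 85.0), WT D5 MR replicate 2 (52.4), KO line 1 at D0, D1 CTL and D1 MR (79.1, 74.6 and 65.6) and KO line 2 at D1 CTL (51.0). The second ranked above the first in every library that had both. Neither was called in WT D5 CTL.

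**Figure D5:**
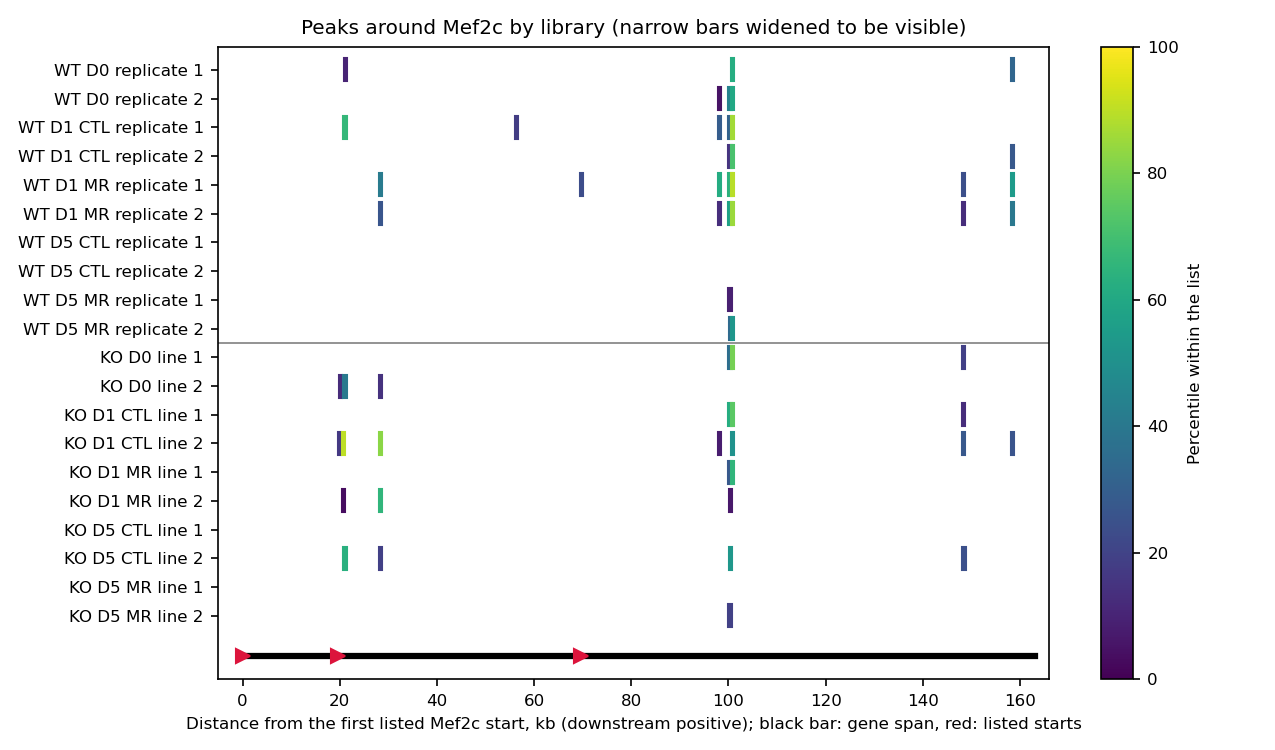
Peaks around Mef2c in each library (rows) by distance from the first listed start (kb), coloured by percentile within the list; the black bar is the gene and the red marks its 3 listed starts. The first start has no bar in any row, the bars between 19.8 and 28.1 kb lie mostly in KO line 2, and the WT D5 CTL rows are empty.

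The elements 20.7 kb and 28.1 kb into Mef2c (chr13:83524530-83524923 and chr13:83532105-83532226), chosen after their values were seen, separated the KO lines. Both were called in all 3 libraries of line 2 at D0 and D1 and in none of line 1. The first had percentiles in line 2 of 40.5 at D0, 90 at D1 CTL, 3.3 at D1 MR and 63.3 at D5 CTL. The second had 14.3, 82.5, 65.5 and 18.9 in the same order. WT had the first in D0 replicate 1 (10.1) and D1 CTL replicate 1 (66.7) and the second in both D1 MR libraries (41.2 and 26.4). Of the regions called in any KO library of D0 or D1, 0.58% were called in all 3 of line 2 and none of line 1, and 8.7% the other way round, a way that 0 Mef2 elements took.

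Across the 5 conditions, 8 of the 48 elements had calls that allowed a genotype test, 6 of which gave an unadjusted p of 0.2778 or more, with differences of 0.3 lower to 0.2 higher in KO. The other two are the Mef2d element at 8.3 kb, which passed, and the Mef2b start, which did not. At an unadjusted p under 0.05 those 2 elements were lower in KO, against 41.8% of testable regions. Elements called in all or nearly all libraries, such as the start of Mef2d, cannot give a small p in a test on calls. Every KO line 2 library had a lower background pileup than every WT library. The part of depth in the genotype tests was not tested.

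Single pairs of groups allow no p under 0.333, so elements present in both libraries of 1 group and absent from both of the other are given as counts, beside the same share of all regions called in either group. From WT to KO, 0 of 32 elements were lost at D0 (5.36% of regions), 3 of 40 at D1 CTL (6.45%) and 8 of 37 at D1 MR (17.7%). The element 8.3 kb into Mef2d and the pair beside Mef2b were lost at both D1 conditions. The other 5 at D1 MR were 3 Mef2c elements (97.9, 148.2 and 158.1 kb from the first start) and the Mef2d elements 17.1 and 3.4 kb upstream. Elements gained in KO numbered 0 at D0 (2.51%), 1 at D1 CTL (5.41%), which was Mef2c at 148.2 kb, and 0 at D1 MR (1.61%). At D5 the KO losses, 5 of 25 in CTL (10.4%) and 8 of 22 in MR (35.1%), include the shallow line 1 lists.

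Methionine restriction changed the calls of no element by the test: 0 of 4 testable elements passed (Benjamini-Hochberg adjusted p 0.5597 to 1.0), 0 of them had an unadjusted p under 0.05, and 0.0% of the 3909 testable regions passed (5.88% at the unadjusted threshold). In WT, 2 of 40 elements were gained from D1 CTL to D1 MR (10.2% of regions), both in Mef2c (28.1 and 148.2 kb from the first start), and 0 were lost (1.75%). At D5, 2 of 23 were gained with restriction in WT (27.9%), 1 in Mef2a at 89.1 kb and 1 in Mef2c at 100 kb, and 0 were lost (0.494%). In KO, 0 were gained at D1 (0.369%) and 2 of 31 were lost (4.0%), Mef2c at 148.2 kb and Mef2d 3.4 kb upstream. At D5 in KO the split gave 0 in either direction (0.0446% and 0.0382%).

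The element 148.2 kb into Mef2c (chr13:83652053-83652441) was therefore on both sides of the comparison. It was called in both WT D1 MR libraries (23.9 and 12.6) and neither WT D1 CTL library, and in both KO D1 CTL libraries (12.7 and 27.0) and neither KO D1 MR library. KO D0 line 1 (18.8) and KO D5 CTL line 2 (24.4) had it too. The difference between the medium effects of the genotypes was −1.25 in call share (exact stratified permutation test, p = 0.02778), and the adjusted p was 0.9802. None of 4 testable elements and 0.0% of 8857 testable regions passed this interaction test, where 4.14% had an unadjusted p under 0.05.

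All 5 elements testable between D1 and D5 had fewer calls at D5, and 3 of them passed, where 66.2% of all testable regions passed in that direction. The Mef2a element at 112.8 kb and the Mef2c element at 100.5 kb each fell by 0.75 in call share (exact stratified permutation test, p = 0.01389, Benjamini-Hochberg adjusted p = 0.0379), with 0 and 1 of 8 D5 libraries called. The element 3.4 kb upstream of Mef2d fell by 0.625 (exact p = 0.02778, adjusted p = 0.04199). All 3 calls were lost without the shallow D5 libraries of KO line 1 (exact test, adjusted p = 0.08013, 0.08013 and 0.07237 for the same call differences), a setting in which 0 of all regions passed and 7166 had an unadjusted p under 0.05. With peaks covering 50% of the region, peaks of −log10 q of at least 5, or the 20000 strongest peaks, the difference of the Mef2d element 3.4 kb upstream was −0.25, −0.125 and 0.0. That of the Mef2a element at 112.8 kb was −0.625, −0.375 and −0.25, and that of the Mef2c element at 100.5 kb −0.75, −0.75 and −0.625. The calls at D5 thus depend on how weak peaks are treated, least so for Mef2c.

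Within WT and CTL, 4 of 34 elements were lost from D1 to D5 (32.9% of regions): the pair beside Mef2b and the pair about 100 kb into Mef2c. Within WT and MR, 9 of 37 were lost (21.9%), among them 4 Mef2c elements. In both media 1 element was gained, the one 1.5 kb upstream of Mef2d, where 0.409% (CTL) and 1.69% (MR) of regions were gained. WT D5 CTL had 0.0 ± 0.0 Mef2c elements (n = 2), against 4.0 ± 1.4 at D1 CTL, and WT D5 MR had 1.5 ± 0.71, against 6.5 ± 0.71 at D1 MR. For Mef2d the numbers were 8.5 ± 0.71 against 11 ± 1.4 in CTL and 9.5 ± 0.71 against 11.5 ± 2.1 in MR. The 2 WT D5 CTL lists were short, with 22465 and 20847 peaks.

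From D0 to D1 CTL, 2 of 35 elements were gained in WT (7.44% of regions), the pair beside Mef2b, and 1 was lost (2.63%), the Mef2a element 159.0 kb from the start. In KO, 0 of 33 were gained (1.91%) and 0 lost (0.353%).

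On the 19629 regions that every one of the 12 D0 and D1 libraries had, ranks can be compared on 1 fixed set, and each KO library's percentile was compared with the mean of the WT pair of its condition. Of the 13 elements in this set, the Mef2a element at 85.2 kb differed by −59.9, −17.6 and −43.6 points in line 2 at D0, D1 CTL and D1 MR, and differed by −32.3, 9.0 and −5.3 in line 1. The elements 12.6 and 18.1 kb upstream of Mef2a had mean differences of −34.6 and −25.8 in line 2, and 0.3 and 21.2 in line 1. Next to Mef2b, the element 19.6 kb from the start had −45.5 in line 2, the mean of −88.1 at D0, −0.4 at D1 CTL and −48.0 at D1 MR, and −2.6 in line 1. Inside Mef2d, the element at 1.0 kb had 35.4 in line 2 and −1.9 in line 1, and the element at 3.5 kb had 12.9 in line 2 and −30.2 in line 1, the mean of −6.2, −26.7 and −57.6. The Mef2d start was lower in both lines, −16.0 in line 1 and −24.7 in line 2. The other 6 elements had mean differences of −13.8 to 25.1 in line 1 and −11.6 to 16.1 in line 2. Over single regions of the whole set, the 5th and 95th percentiles of the mean difference were −33.6 and 31.2 in line 1 and −31.6 and 29.7 in line 2. In line 1 none of the 13 elements lay outside that range, and in line 2 the 4 at 85.2 kb and −12.6 kb of Mef2a, 19.6 kb of Mef2b and 1.0 kb of Mef2d did. These are descriptions of 1 library per line and condition. Line 2 also had the lower background pileup, 2.30 to 2.76 against 3.15 to 5.20 in line 1 over these libraries, and the part of depth in the differences was not tested.

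As 1 call per gene, a peak within 1 kb of either end of the gene model was tested over 21631 protein-coding genes. Mef2d had such a peak in 18 libraries, Mef2b in 16 (10 WT and 6 KO), and Mef2a and Mef2c in 0. No member's calls allowed an adjusted test in any contrast. Over all genes, 1.62% of 1850 testable genes had fewer calls in KO, 63.6% of 1788 had fewer at D5, and 0.0% of 350 differed by medium. With the listed starts used in place of the gene ends, a choice made after the data were seen, Mef2b had 10 WT and 4 KO calls (exact stratified permutation test, p = 0.01389, adjusted p = 0.06818), where 4.72% of testable genes were lower in KO and 0.429% higher.

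Among 25 genes that regulate MEF2 proteins, 12 had a gene-end peak in all 18 deeper libraries, 4 had none in any, and the median was 17 libraries, against a median of 5 and a share of 25.7% called in all 18 over all protein-coding genes. The 12 include Hdac4, a class IIa deacetylase that represses MEF2, Mapk14 (the p38 alpha kinase) and Mapk7 (ERK5), which phosphorylate MEF2, and the acetyltransferase Ep300. Those without a peak were Hdac9, Camk2a, Camk2b and Camk4. Fewer calls at D5 passed for 2 of 3 testable genes, where 63.6% of all testable genes passed: Hdac5 (a call difference of −0.625, exact stratified permutation test, adjusted p = 0.04364) and Prkd2, a protein kinase D that acts on these deacetylases (−0.875, adjusted p = 0.04139). Both calls were lost without the D5 libraries of KO line 1, where the differences were −0.5 (exact p = 0.05556) and −0.875 (exact test, adjusted p = 0.06689) and 0 of all genes passed. They were lost too with the 20000 strongest peaks, where Hdac5 turned to 0.25 and Prkd2 had −0.5, and without either WT replicate. For genotype, 1 was testable: Kat2b, the PCAF acetyltransferase, had 10 WT and 4 KO calls (exact test, adjusted p = 0.06472), the same counts as the Mef2b start.

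Of 8 partner genes, Tcf3 was called in all 18 deeper libraries, Myod1 in 17, and Myf5 and Srf in 0. Myog, the myogenic factor that works with MEF2 during differentiation, had calls in all 8 WT libraries of D1 and D5 and in 0 of 10 KO libraries (call difference −0.8, exact stratified permutation test, p = 0.001543, adjusted p = 0.05222), and so missed the threshold. Tcf4, a partner of the MyoD family, had fewer calls at D5 (−0.75, exact test, adjusted p = 0.04139), 1 of 3 testable partners to pass, again beside 63.6% of all testable genes. This call was lost without the D5 libraries of KO line 1 (−0.625, exact test, adjusted p = 0.06689) and without either WT replicate, and the difference was 0.0 with gene ends within 500 bp or peaks of −log10 q of at least 5 and 0.125 with the 20000 strongest peaks. WT D0 had no Myog call, and so the Myog gene end and the Mef2d element at 8.3 kb shared calls in the 8 WT libraries of D1 and D5 and differed in WT D0 replicate 2. How many other regions or gene ends had these calls is not given here. Of all testable regions, 16.1% had fewer calls in KO at an adjusted p under 0.05 (exact test). Of testable gene ends, the measure used for Myog, 1.62% did.

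Of 14 MEF2 target genes, 4 (Xirp1, Jun, Des and Tnni1) were called in all 18 deeper libraries and Srpk3 in 0, with a median of 13.5 libraries. None of 3 genes testable for genotype passed. Ckm, the muscle creatine kinase, had 5 WT and 0 KO calls, and Smyd1, a muscle methyltransferase, had 7 WT and 2 KO calls (exact stratified permutation test, p = 0.04167, adjusted p = 0.09298 for both). Over all genes, 769 of the 1850 testable ones had fewer calls in KO at an unadjusted p under 0.05 (exact test). More WT than KO libraries were called for 13 of the 14, and for 10455 of all 21631 genes, against 1143 with more KO libraries. The remaining target and 9133 of all genes had no call in any library, so the 2 shares are not alike. The shallow KO lists enter these counts, and a gene called in the 18 deeper libraries alone counts as having more WT libraries.

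Genes whose gene-end ranks ran most like those of a member were found over the 18 deeper libraries among 10031 genes called in at least 9 of them. The nearest to Mef2d were Asap3, Pigg and Tnfaip8l1, with Spearman rho of 0.959, 0.953 and 0.948. For Mef2b they were Xylb (0.944), Chrna1 (0.938), a subunit of the muscle acetylcholine receptor, and AI413582 (0.923). Mef2b and Mef2d had a rho of 0.625 with each other. The points share library depth and list length, and these values are descriptions.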

How the data were processed

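Chromatin accessibility was measured by ATAC-seq in 20 libraries of C2C12 cells. Tagmentation used a kit and the libraries went through 10 cycles of PCR, per the labels' protocols. The submitters' processing notes name the build GRCm38; the aligner, peak caller, duplicate handling and read shift are not given in the sources used here, and how they affect the lists was not tested.

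The authors deposited 1 broad peak list per library. For each peak the deposited lists give a score, a fold (ratio) of enrichment over background, and −log10 of a p-value and of a q-value, all computed by the authors. The deposited lists hold no read counts. Peaks were ranked, filtered and described by these values, always inside 1 list. Background pileup was recovered from the commonest fold and p-value pair of each list, assuming a Poisson model, and is a measure of depth only under that assumption: it was 1.42 to 5.88 in 18 libraries and 0.128 and 0.101 in KO line 1 at D5.

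Peaks were merged where they shared at least 1 base, with Python 3.11.15, pandas 2.3.3 and scipy 1.17.1. Gene spans and listed starts come from RefSeq tables of GRCm38.p6, in which all 4 members were found. Element distances run from the element's midpoint to the first listed start. Calls were compared with an exact two-sided permutation test within strata: genotype within 5 conditions (7776 arrangements), and day or medium within 4 strata (1296 arrangements). Benjamini-Hochberg adjustment covered every region whose number of calls could give an exact p at or under the threshold of 0.05. The test was checked on simulated data in which libraries were drawn independently. That check does not cover libraries of 1 KO line that deviate together.

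Elements named with values in every library are those at gene ends, those past a threshold, the most often called element away from the ends of each gene, and up to 10 per contrast at an unadjusted p under 0.05; others are said to be chosen after their values were seen, except the elements at listed starts and a few neighbours given as context. The members and lists were chosen with earlier results of these data known. Libraries of 1 KO line share that line. Deviations of same-numbered KO libraries correlated at 0.1146 to 0.6471 over 10 pairs of conditions, and those of WT replicates at −0.02958 to 0.04501. The numbers were thus taken to pair KO libraries alone. The highest value, 0.6471, was that of D5 CTL with D5 MR, which holds the shallow lists of line 1, and the next was 0.3959. The 2 lines also differ in depth, and its part in these correlations was not tested. Alternatives were other overlaps, peak thresholds, list lengths, windows and ranking values, each replicate left out, and a replicate block.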

Additional observations from a re-analysis of the deposited data

How the results depend on the processing

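No element or count reversed its direction under an alternative that was run, although the D5 difference of the Mef2d element 3.4 kb upstream became 0.0 with the 20000 strongest peaks, and those of the Hdac5 and Tcf4 gene ends turned to 0.25 and 0.125 there. Of the summary results, 64 values moved by less than 1.5 times or 1 SD and 19 moved further. Most of the 64 are counts of 0 that stayed at 0, many of them with nothing testable, and so say little about stability. The count of elements differing by genotype (1) became 0 when peaks had to cover 50% of a region, 0 without the D5 libraries, and 0 to 2 when 1 replicate or line was left out (0 without either WT replicate or KO line 2, 2 without KO line 1). With the replicate block, which pairs libraries by number, it was 2, the Mef2d element at 8.3 kb and the Mef2b start (exact test, adjusted p = 0.04694 for both), although a WT replicate and a KO line share only a number. With the 20000 strongest peaks of each list it was 1, but a different element, the one 12.6 kb upstream of Mef2a (lower in KO, adjusted p = 0.04034, exact test), and the Mef2d element at 8.3 kb then had an adjusted p of 0.05094 (exact test), against 0.09304 with 50% cover. Over all regions, 3513 passed the genotype test in the original setting, and 0 with 50% cover, without either WT replicate or without KO line 2. The number was 1347 without the D5 libraries, 3279 without KO line 1, 5482 with the replicate block and 1691 with the 20000 strongest peaks. The count for D5 against D1 (3) became 5 with 50% cover, of which 2 were shared with the original 3, 5 with a −log10 q of at least 5, of which 1 was shared, 0 with the 20000 strongest peaks, 0 without the D5 libraries of KO line 1, and 0 to 2 with 1 replicate or line left out (0 without either WT replicate or KO line 1, 2 without KO line 2). It was 2 with the replicate block (the Mef2a element at 112.8 kb and the Mef2c element at 100.5 kb) and 3 with the block for KO lines alone. Over all regions, 10687 passed this day test originally, 8767 with 50% cover and 11559 with a −log10 q of at least 5. With the 20000 strongest peaks, without the D5 libraries of KO line 1 or without either WT replicate, 0 did. Without KO line 1 or KO line 2 the numbers were 3512 and 6799. They were 5943 with the replicate block and 11798 with the block for KO lines alone. With peaks of −log10 q of at least 5, there were 7 elements for Mef2a, 6 for Mef2c and 11 for Mef2d, and a 10 kb window gave 4 for Mef2b. Ranked by fold enrichment, the Mef2d element 35.3 kb from the start had a median percentile of 96.3 in place of 97.5 over the 18 deeper libraries. Counts for medium, the interaction and gene ends stayed at 0 in every setting run. For medium and day, no member's gene end was testable in any setting, so a count of 0 was fixed in advance. For genotype this held in most settings, and for medium some settings left no testable element. The 2 shallow KO lists limit every D5 comparison, and a test on calls cannot see changes in the height of a peak that stays called.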
